A study of Mus musculus with 2 samples.

Results

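The genes described here encode the enzymes that write and remove cytosine methylation in mouse cells, together with their closest partners, and they were followed through the return of primed pluripotent cells to a naive state. They were taken by gene symbol from the raw count table, and all 9 (Dnmt1, Uhrf1, Dnmt3a, Dnmt3b, Dnmt3l, Tet1, Tet2, Tet3 and Tdg) were found among its 33963 gene rows. Their levels were read in 5 cell populations profiled by single-cell RNA-seq. Naive mouse embryonic stem cells (mESCs) of the Rex1-GFP line, in which the Rex1 promoter drives GFP, were kept in 2iL, a medium with inhibitors of MEK and GSK3 plus leukemia inhibitory factor (LIF). Primed mouse epiblast stem cells (mEpiSCs) were of the Oct4GIP line, which carries an Oct4-GFP-ires-puro transgene. They were kept in serum-free medium with FGF2 and Activin A. The study's methods give fibronectin-coated plates for this line, while its authors took Oct4-negative cells of this population for fibroblast feeders. Oct4GIP cells were also treated with AICAR, an activator of AMPK, together with LIF. This was done on fibroblast feeders in a medium with serum and serum replacement. Cells were taken at 8 days (d8), at 16 days (d16) and after a further 10 passages in 2iL that followed day 16 (d16+10p). The labels give the strain as 129/Ola. All populations except naive come from Oct4GIP, so in every comparison with naive cells the cell line and the state cannot be told apart. The medium differed among the naive, primed and AICAR+LIF cultures, and d16+10p cells differed from d16 cells in medium and passages. Neither can be told apart from the state.

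Cytosine methylation at CpG dinucleotides is copied after replication by DNMT1, which UHRF1 brings to hemimethylated DNA. DNMT3A and DNMT3B place new methyl groups, and DNMT3L, which has no catalytic activity, stimulates them. TET1, TET2 and TET3 oxidise 5-methylcytosine, and TDG removes the oxidised products so that repair can restore an unmodified cytosine. Naive mESCs kept in 2iL are known for low global methylation, whereas primed mEpiSCs are highly methylated.

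There was 1 sample of each population, told apart by a tag within 1 library, so differences have no replicate check and were not tested. The 17720 cells (naive 801, primed 1826, d8 9627, d16 4315, d16+10p 1151) carried 307121033 reads, and the median per cell lay between 10185 and 21551 across populations. More cells carried the naive and primed tags than the 500 loaded for each according to the labels, so some cells may stand under a wrong tag, and every naive and primed level is that of the tagged cells. No barcode appeared under more than 1 tag. The d16 cells were divided at a Dppa5a level of 1000 CPM (reads of a gene per 1000000 reads of the cell or group), Dppa5a being a gene of naive and reverting cells, into 1278 Dppa5a-high and 3037 Dppa5a-low cells. In the naive, primed and d16+10p populations a panel of 6 pluripotency genes (Pou5f1, Utf1, L1td1, Dppa4, Dppa2 and Tdgf1) was used to set aside other cells. Panel-positive cells had at least 1 panel read and numbered 711 naive, 1313 primed and 1075 d16+10p cells. Panel-high cells reached 500 CPM and numbered 585, 652 and 764. The stricter group was added because the study took Oct4-negative cells of the primed population for feeder cells. The summed level of 6 fibroblast collagen and matrix genes was 1261 CPM in panel-positive and 588 CPM in panel-high primed cells, against 458 CPM in panel-high naive cells. Naive-tagged cells with no panel read also had 2649 CPM, and feeder cells and cells under a wrong tag cannot be told apart.

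Levels are given in CPM, the reads of a gene summed over the cells of a group and scaled to a total of 1000000, with a 95% Poisson interval where one is printed. A summed level cannot separate fewer cells with the gene from a lower level per cell. The reads are not molecules, so intervals cover counting error only, and they say nothing of how another culture would vary. Levels were not set against each other between genes.

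Dnmt3b, Dnmt3l and Tet1 are the 3 members that were more than 2-fold above naive cells in d16 Dppa5a-high or d16+10p cells. Their promoter windows are printed because the enzymes act on CpG, and the windows differ in how much CpG they hold. Each window runs from 250 bases before to 50 bases after a RefSeq start on GRCm38.p6, is written 5′ to 3′ on the strand of the gene, and has every CpG in capitals. The Dnmt3b window is chr2:153649199-153649498 (+), the Dnmt3l window of its first listed start is chr10:78042037-78042336 (+), and the Tet1 window is chr10:62887275-62887574 (−).
Dnmt3b: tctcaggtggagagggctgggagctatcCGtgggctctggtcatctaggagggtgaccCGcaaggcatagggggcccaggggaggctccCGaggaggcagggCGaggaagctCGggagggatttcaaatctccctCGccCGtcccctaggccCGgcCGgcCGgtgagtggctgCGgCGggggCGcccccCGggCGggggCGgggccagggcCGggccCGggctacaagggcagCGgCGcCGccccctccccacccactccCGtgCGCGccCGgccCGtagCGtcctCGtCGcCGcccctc
Dnmt3l: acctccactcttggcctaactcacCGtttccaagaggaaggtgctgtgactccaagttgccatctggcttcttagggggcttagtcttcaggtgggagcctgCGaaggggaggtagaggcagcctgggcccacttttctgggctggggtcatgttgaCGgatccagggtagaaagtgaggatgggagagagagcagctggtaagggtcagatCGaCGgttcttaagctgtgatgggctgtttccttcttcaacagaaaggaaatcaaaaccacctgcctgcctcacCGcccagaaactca
Tet1: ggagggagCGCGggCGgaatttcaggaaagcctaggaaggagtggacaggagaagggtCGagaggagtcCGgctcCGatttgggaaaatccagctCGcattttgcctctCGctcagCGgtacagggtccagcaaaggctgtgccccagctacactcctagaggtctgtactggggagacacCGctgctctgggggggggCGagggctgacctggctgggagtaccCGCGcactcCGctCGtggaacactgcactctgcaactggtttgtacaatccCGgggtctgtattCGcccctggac
The letters CG were found 30 times in the Dnmt3b window, 17 times in the Tet1 window and 6 times in the Dnmt3l window, where the median over 32851 promoter windows of the same length was 7. At most 30 CpG were present in 89.4% of all windows, at most 17 in 70.3% and at most 6 in 47.9%. The windows at the other two starts of Dnmt3l held 4 and 3 CpG. All 9 genes had a window in the RefSeq table, 16 in all. Neither methylation nor the start used in these cells was measured here, so these counts describe the sequence only.

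The maintenance pair was read first. Dnmt1, on chromosome 9 (20907209 to 20959888, minus strand, GRCm38), measured 86.6 CPM in naive, 76.2 CPM in primed, 43.2 CPM in d8, 54.5 CPM in d16 Dppa5a-low, 121 CPM in d16 Dppa5a-high and 105 CPM in d16+10p cells. The Dppa5a-high cells were the highest and the d8 cells the lowest, and no neighbours in this order had overlapping intervals. Uhrf1, on chromosome 17 (56303321 to 56323486, plus strand), measured 244, 101, 35.9, 42.9, 191 and 198 CPM in the same order of populations. It was highest in naive cells, and its d16 Dppa5a-high interval (185 to 197 CPM) overlapped that of d16+10p (192 to 203 CPM). In panel-high cells Uhrf1 was 276 CPM (267 to 284) in naive, 137 CPM (131 to 144) in primed and 214 CPM (207 to 220) in d16+10p. Dnmt1 differed less there, with 93.2, 87.5 and 108 CPM.

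**Figure D1:**
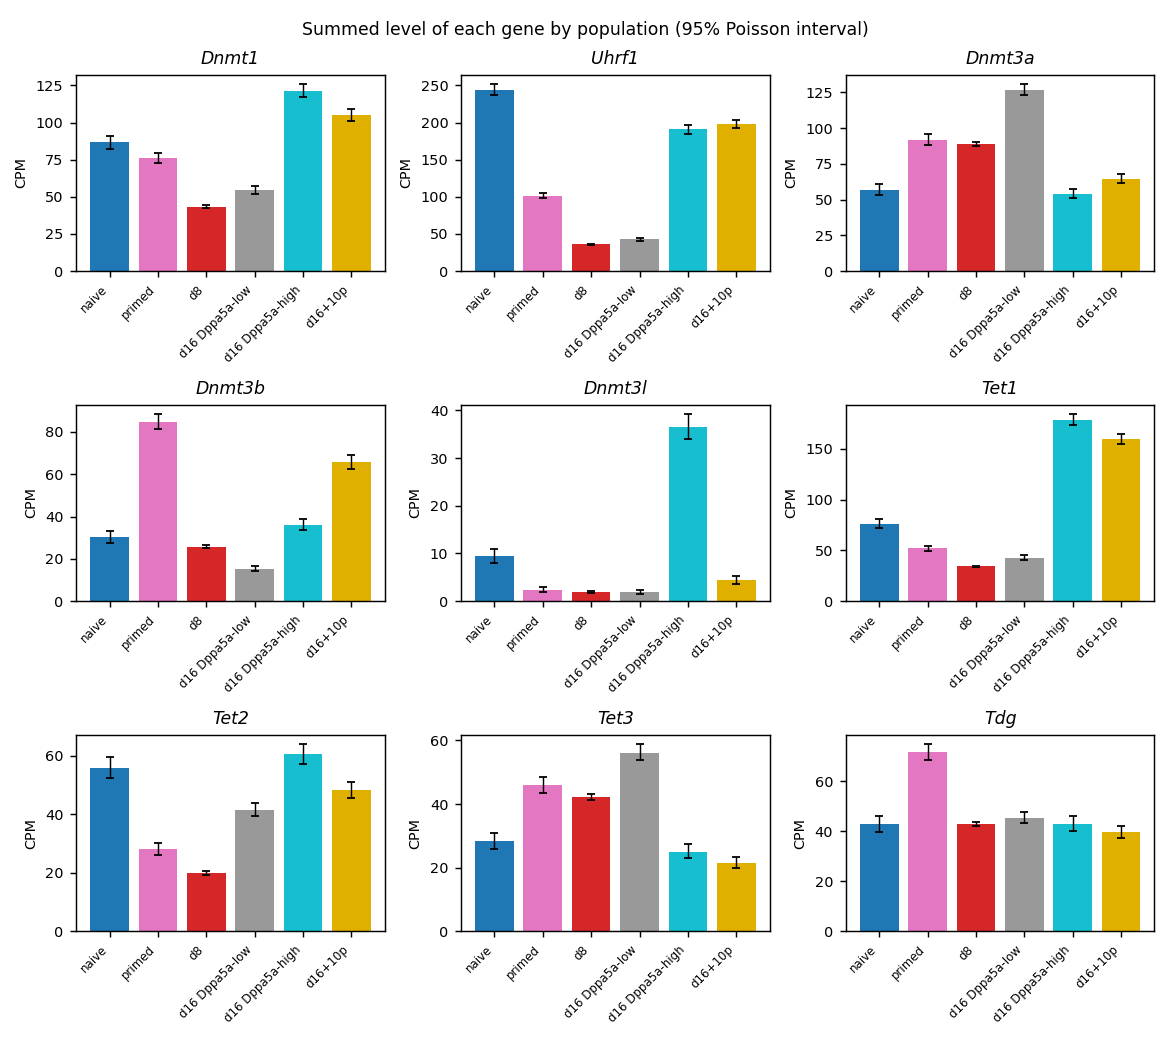
Summed level in CPM (vertical axis, from 0) of each of the 9 genes in the 5 populations, with d16 divided at a Dppa5a level of 1000 CPM. Bars are 1 tagged sample each and error bars are 95% Poisson intervals of counting error. Dnmt3l stands at 36.5 CPM in d16 Dppa5a-high cells and under 10 CPM in every other group, and Dnmt3b is highest in primed cells at 84.9 CPM.

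Among the de novo enzymes, Dnmt3a and Dnmt3b ran in different orders. Dnmt3a, on chromosome 12 (3806007 to 3914443, plus strand), measured 56.9 CPM in naive, 92 CPM in primed, 88.9 CPM in d8, 127 CPM in d16 Dppa5a-low, 54 CPM in d16 Dppa5a-high and 64.6 CPM in d16+10p cells. Dppa5a-low cells were highest, and the intervals of primed and d8, and those of naive and Dppa5a-high, overlapped. In panel-high cells it was 75.5 CPM (71 to 80.3) in primed, 58.6 CPM (55.2 to 62.1) in d16+10p and 46.1 CPM (42.7 to 49.8) in naive cells. Dnmt3b, on chromosome 2 (153649450 to 153687730, plus strand), measured 30.3, 84.9, 25.8, 15.4, 36.1 and 65.7 CPM in the same populations. Primed cells were highest, d16+10p next, and no neighbouring intervals overlapped. In panel-high cells Dnmt3b reached 142 CPM (135 to 148) in primed, 69 CPM (65.3 to 72.8) in d16+10p and 31.7 CPM (28.9 to 34.8) in naive cells. The primed level was thus higher in panel-high cells than over the whole primed tag. The primed cells with no panel read, whose summed fibroblast level was 4092 CPM, had 20.6 CPM of Dnmt3b.

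Dnmt3l, the inactive cofactor, on chromosome 10 (78041947 to 78063622, plus strand), was highest in d16 Dppa5a-high cells, and only naive cells were also clear of the background. It had 758 reads or 36.5 CPM (33.9 to 39.2) in d16 Dppa5a-high cells, 162 reads or 9.39 CPM (8 to 11) in naive cells and 117 reads or 4.46 CPM (3.69 to 5.35) in d16+10p cells. In primed, d16 Dppa5a-low and d8 cells it measured 2.4, 1.91 and 1.86 CPM, and these intervals overlapped. Macrophage-marker cells, which should lack the gene, gave 34 reads in 517 cells or 3.25 CPM (2.25 to 4.55). The levels in primed, d8 and Dppa5a-low cells were therefore at or under this background, and the d16+10p interval overlapped it. To set shares of cells side by side, each cell was thinned to 5000 reads. A Dnmt3l read was then present in 12.4% (10.6 to 14.3, exact binomial interval) of Dppa5a-high cells, 3.82% (2.55 to 5.47) of naive cells, 1.85% (1.13 to 2.84) of d16+10p cells and 1.06% (0.344 to 2.45) of macrophage-marker cells. Before thinning the shares were 23%, 10.6%, 5.47% and 3.48%. The order was the same on both scales, and the primed, d8 and Dppa5a-low shares (0.707%, 0.879% and 0.809% after thinning) lay under the macrophage share.

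The dioxygenases differed from each other. Tet1, on chromosome 10 (62804570 to 62908996, minus strand), measured 76.4 CPM in naive, 52.1 CPM in primed, 34.2 CPM in d8, 43 CPM in d16 Dppa5a-low, 178 CPM in d16 Dppa5a-high and 160 CPM in d16+10p cells. Dppa5a-high and d16+10p cells were both above naive cells, and no neighbouring intervals overlapped. Tet2, on chromosome 3 (133463679 to 133545139, minus strand), measured 55.9, 28.2, 19.9, 41.6, 60.6 and 48.3 CPM in the same populations. Its naive and Dppa5a-high intervals overlapped, and primed and d8 cells were lowest. Tet3, on chromosome 6 (83362373 to 83459084, minus strand), ran the other way, with 28.4, 45.9, 42.3, 56.2, 25.1 and 21.5 CPM. Here the Dppa5a-low cells were highest and d16+10p cells lowest. Beside the Tet3 value in d16+10p cells, the median log2 ratio of the chromosome 6 genes against naive cells was 0.23 under the autosomal median, and its part in the Tet3 difference was not tested.

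Tdg, on chromosome 10 (82629828 to 82650799, plus strand), measured 71.5 CPM (68.4 to 74.7) in primed cells and 39.6 to 45.4 CPM in the other 5 groups, whose neighbouring intervals all overlapped. In panel-high cells it was 90.9 CPM in primed, 41.2 CPM in naive and 37.3 CPM in d16+10p. Tdg has near-identical pseudogene copies, of which Tdg-ps measured 8.33 CPM (Dppa5a-high) to 20 CPM (panel-high primed), so its reads may have been split among them and its level is uncertain. The germline paralog Dnmt3c and the antisense genes Dnmt3aos and Dnmt3bos stayed at or under 0.278 CPM in every group.

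**Figure D2:**
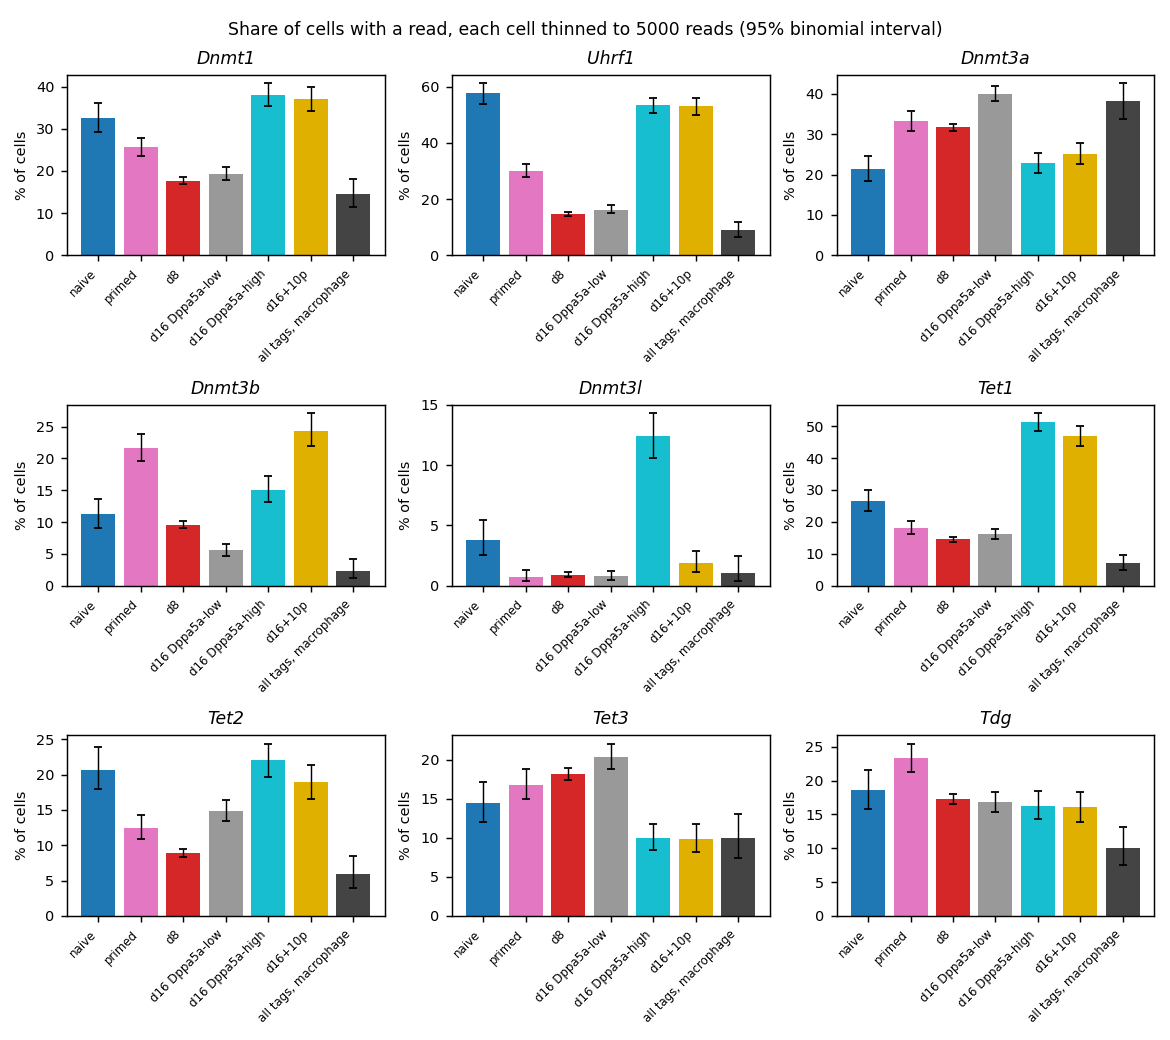
Share of cells with at least 1 read of each gene (vertical axis, % of cells, from 0) after thinning every cell to 5000 reads, in the 6 groups and in macrophage-marker cells of all tags. Error bars are 95% exact binomial intervals. Tet1 was read in 51.2% of d16 Dppa5a-high and 47% of d16+10p cells against 26.6% of naive cells, and Dnmt3l in 12.4% of Dppa5a-high cells.

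Among the other genes, the shares of Uhrf1 and Tet1 ran much as their summed levels did. Uhrf1 was read in 57.6% of naive, 53.3% of Dppa5a-high, 53% of d16+10p, 30% of primed and 14.7% of d8 cells after thinning. Tet1 was read in 18.1% of primed, 14.5% of d8 and 6.98% of macrophage-marker cells. Dnmt3b was read in 21.7% (19.6 to 23.8) of primed and 24.4% (21.9 to 27.1) of d16+10p cells, whose intervals overlapped, and in 39% (35.1 to 43.1) of panel-high primed cells, 25.4% (22.3 to 28.6) of panel-high d16+10p cells and 12.6% (10 to 15.6) of panel-high naive cells. These panel-high intervals did not overlap, and the macrophage-marker share was 2.33%. Thinning left out 68 naive, 271 primed, 755 d8, 40 Dppa5a-high, 564 Dppa5a-low and 69 d16+10p cells that were too shallow.

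The first comparison asked how primed cells stood against naive cells. In panel-positive cells Dnmt3b was 3.16 times as high in primed as in naive cells (2.87 to 3.48), whereas Uhrf1 was 0.431 times (0.41 to 0.453) and Tet2 0.438 times (0.394 to 0.486) as high. A difference was counted when log2(CPM + 1) differed by at least 1, that is 2-fold, among genes with at least 100 reads over both groups and at least 10 CPM in either. Of the 8 members that passed this filter, 1 was at least 2-fold higher and 2 were at least 2-fold lower in primed cells. Over all 10483 genes 3.56% were that much higher and 4.99% that much lower. Tdg (1.79 times), Dnmt3a (1.66 times), Tet3 (1.57 times), Tet1 (0.673 times) and Dnmt1 (0.915 times) lay within 2-fold. Dnmt3l was under 10 CPM in both groups and was not counted. In panel-high cells the Dnmt3b ratio was 4.47 (4.03 to 4.96), Tdg (2.21) and Dnmt3l (0.281) also passed 2-fold, and Uhrf1 was at the boundary with 0.498. Dnmt3l passed the filter there only through its naive level of 10.6 CPM. Its primed level, 40 reads or 2.99 CPM, lay within the interval of the macrophage background (2.25 to 4.55 CPM).

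Uhrf1 and Dnmt1 are known to be highest in cells that replicate DNA, so their ratios were also read beside a list of 12 S-phase genes. The list summed to 1465 CPM in naive, 1160 CPM in primed, 543 CPM in d8, 525 CPM in Dppa5a-low, 1757 CPM in Dppa5a-high and 1499 CPM in d16+10p cells. In panel-high cells it was 1580, 1520 and 1575 CPM in naive, primed and d16+10p. Among panel-high cells below the median of this list, the Uhrf1 log2 ratio of primed to naive was -1.11, and among those above it was -0.93. For Dnmt1 the same log2 ratios were -0.31 (-0.48 to -0.15) and 0.11 (-0.05 to 0.27), the second of which held 0. The part of the cell cycle in these differences was not tested.

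**Figure D3:**
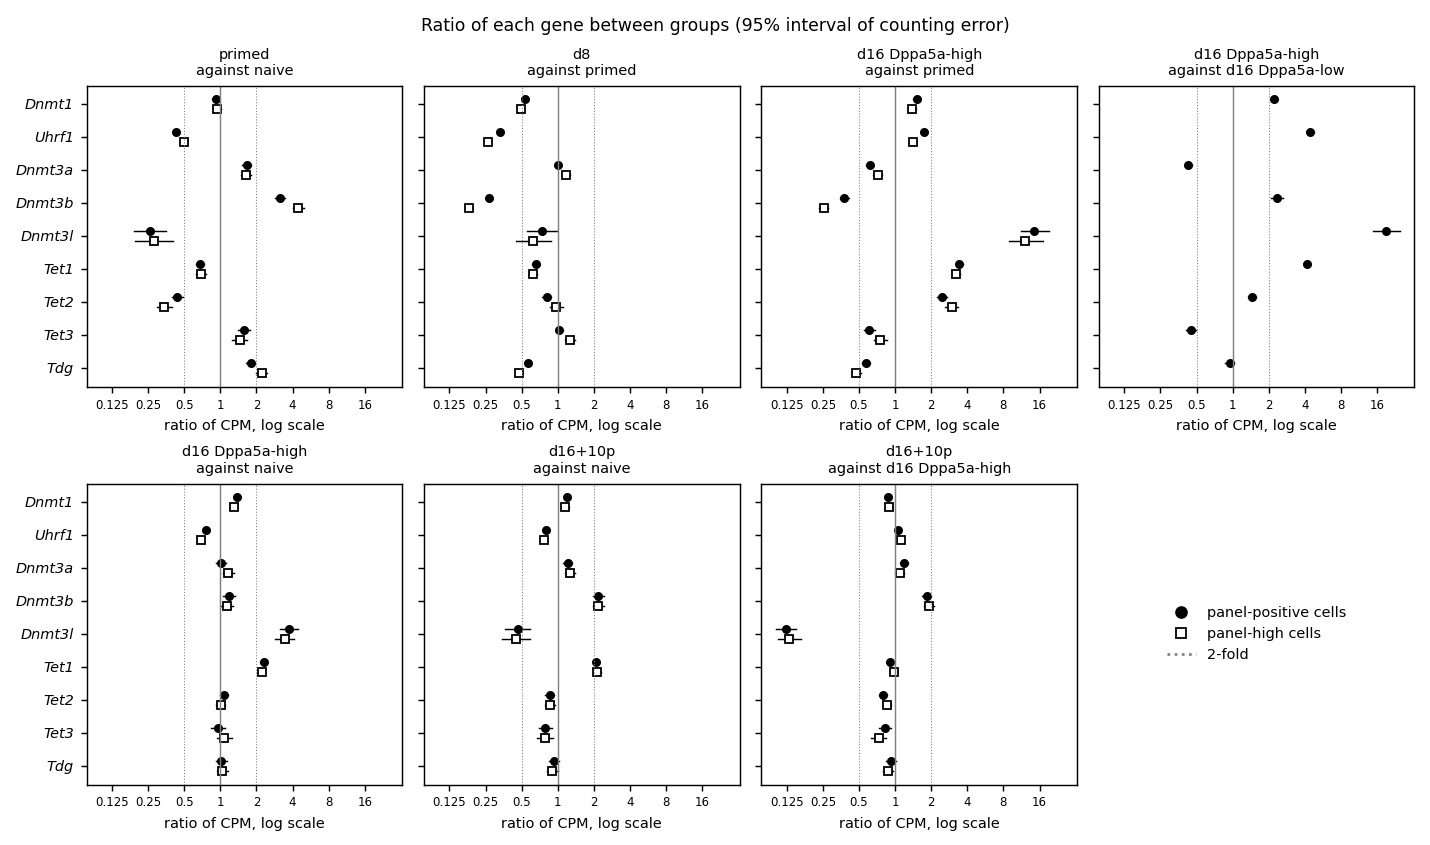
Ratio of CPM between the groups named above each panel (horizontal axis, log scale) for the 9 genes. Filled circles are panel-positive cells, open squares panel-high cells, lines are 95% intervals of counting error, and d16 groups are divided by Dppa5a only. Dnmt3l has a ratio of 14.5 in d16 Dppa5a-high against primed cells, whose Dnmt3l level is at the macrophage background. Dnmt3b has a ratio of 3.16 in primed against naive cells.

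After 8 days of AICAR+LIF the pluripotency panel summed to 232 CPM, against 753 CPM over all primed-tagged cells and 882 CPM in the panel-positive ones. A panel read was present in 72.8% of d8 and 71.9% of primed-tagged cells, with median panel levels of 99.6 and 219 CPM over cells. All d8 cells were used here, undivided by the panel, and they may include feeder cells. In them Dnmt3b was 0.269 times (0.256 to 0.283) and Uhrf1 0.328 times (0.314 to 0.344) as high as in panel-positive primed cells. Dnmt1 (0.537 times), Tdg (0.568 times), Tet1 (0.654 times) and Tet2 (0.808 times) were also lower but within 2-fold, whereas Dnmt3a (1.01 times) and Tet3 (1.03 times) were nearly level. Of the 8 members that passed the filter, 0 were at least 2-fold higher and 2 at least 2-fold lower, where 4.26% and 3.6% of all 10387 genes were. Against panel-high primed cells Dnmt1 (0.494 times) and Tdg (0.471 times) also passed 2-fold. The S-phase list was lower in d8 cells as well, as given above, and its part in the Uhrf1 and Dnmt1 differences was not tested.

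The d16 Dppa5a-high cells were then set against the primed cells they derive from. Dnmt3l was 14.5 times (11.1 to 19.1), Tet1 3.42 times (3.2 to 3.65) and Tet2 2.46 times (2.22 to 2.71) as high as in panel-positive primed cells, and Dnmt3b was 0.376 times (0.346 to 0.408) as high. The Dnmt3l ratio rests on 60 primed reads at the level of the macrophage background. It shows the distance of Dppa5a-high cells from that background rather than from a measured primed level. Of all 9 members, 3 were at least 2-fold higher and 1 at least 2-fold lower, against 6.53% and 3.69% of 10638 genes. Uhrf1 (1.75 times) and Dnmt1 (1.51 times) were higher and Dnmt3a (0.613 times), Tet3 (0.61 times) and Tdg (0.571 times) lower, all within 2-fold. With panel-high primed cells the same 4 members passed 2-fold and Tdg joined them, with 0.473 times the primed level.

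Within the d16 population, the Dppa5a-high cells differed from the Dppa5a-low cells in 7 of the 9 members. Dnmt3l was 19.1 times (14.9 to 24.9), Uhrf1 4.46 times (4.2 to 4.73), Tet1 4.15 times (3.91 to 4.41), Dnmt3b 2.34 times (2.09 to 2.61) and Dnmt1 2.23 times (2.1 to 2.36) as high. Dnmt3a was 0.425 times (0.398 to 0.454) and Tet3 0.447 times (0.405 to 0.492) as high, while Tet2 (1.46 times) and Tdg (0.947 times) lay within 2-fold. The Dnmt3l ratio is again taken against a level under the macrophage background. These 5 higher and 2 lower members stand beside a large background, since 11.2% of all 11348 genes were at least 2-fold higher and 16.6% at least 2-fold lower. Dppa5a-low cells had a fibroblast sum of 3478 CPM against 512 CPM in Dppa5a-high cells. The part of the differing cell types, which may include feeder cells, was not tested. The S-phase list also differed, at 1757 CPM in Dppa5a-high and 525 CPM in Dppa5a-low cells. Its part in the Uhrf1 and Dnmt1 differences was not tested.

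Along the Dppa5a level of the d16 cells the members moved at different points. Dnmt3l measured 1.16 CPM in the 1574 cells with no Dppa5a read, 1.66 CPM under 500 CPM, 13.1 CPM between 500 and 1000, 25.5 CPM between 1000 and 2000, 35.3 CPM between 2000 and 4000 and 41.6 CPM at 4000 and over. Tet1 ran through 49.2, 35.6, 88, 140, 184 and 185 CPM in the same 6 bins. Uhrf1 ran through 40.8, 42, 76.3, 118, 190 and 218 CPM. These genes were above the Dppa5a-poor cells already in the 111 cells of the bin just under 1000 CPM, where Tet1 had an interval of 73 to 105 CPM and Dnmt3l one of 7.76 to 20.7 CPM. Dnmt3b was 18.8 CPM (14.2 to 24.4) between 1000 and 2000 and 38.1 CPM (34.2 to 42.3) between 2000 and 4000, so it was low in the bin in which Tet1 and Dnmt1 were high. Dnmt1 measured 125 CPM between 1000 and 2000 and 128 CPM at 4000 and over. Dnmt3a went from 144 CPM without Dppa5a to 48.8 CPM in the highest bin and Tet3 from 62.8 to 19.8 CPM. Tdg stayed between 39.3 and 46.6 CPM with overlapping intervals throughout. Within a factor of 1.5 of the division at 1000 CPM lay 140 cells.

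**Figure D4:**
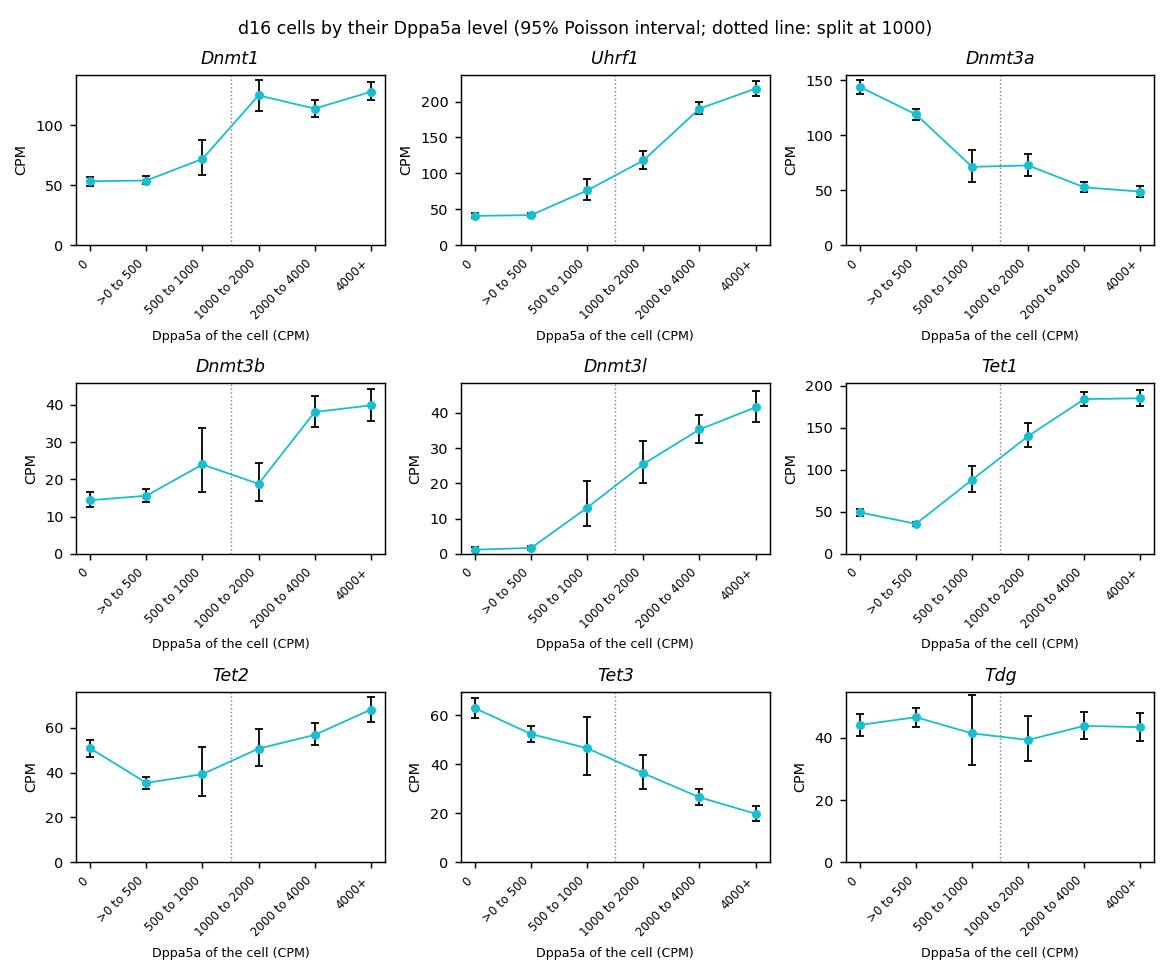
Summed level in CPM (vertical axis, from 0) of each gene in d16 cells grouped by their own Dppa5a level (horizontal axis, 6 bins in CPM). Points are sums over the cells of a bin, error bars are 95% Poisson intervals, and the dotted line is the division at 1000 CPM. Dnmt3l goes from 1.16 to 41.6 CPM and Tet3 from 62.8 to 19.8 CPM between the lowest and the highest bin.

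The d16 Dppa5a-high cells were next compared with naive cells. Dnmt3l was 3.75 times (3.16 to 4.47) and Tet1 2.3 times (2.16 to 2.45) as high in Dppa5a-high as in panel-positive naive cells. Of the 9 members these 2 were at least 2-fold higher and 0 at least 2-fold lower, where 2.68% and 0.979% of 10314 genes were. Dnmt3l passed the filter here only through its Dppa5a-high level of 36.5 CPM, since panel-positive naive cells had 9.73 CPM (8.28 to 11.4). Uhrf1 was lower at 0.754 times (0.722 to 0.787) and Dnmt1 higher at 1.38 times (1.29 to 1.47). Dnmt3b (1.19 times, 1.06 to 1.33) was within 2-fold, and the intervals of Dnmt3a, Tet2, Tet3 and Tdg held a ratio of 1. In panel-high naive cells the Dnmt3l and Tet1 ratios were 3.43 and 2.21. Among cells below and above the median of the S-phase list, the Tet1 log2 ratios were 1.08 and 1.17 and those of Dnmt3l 1.54 and 1.81.

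After 10 passages in 2iL the Dnmt3l level of Dppa5a-high cells was not kept, whereas that of Tet1 nearly was. From d16 Dppa5a-high to panel-positive d16+10p cells, Dnmt3l stood at 0.123 times (0.101 to 0.15), Tet1 at 0.903 times (0.863 to 0.944) and Dnmt3b at 1.83 times (1.68 to 2). Dnmt3l passed the filter only through its Dppa5a-high level of 36.5 CPM. Its level in panel-positive d16+10p cells, 116 reads or 4.5 CPM (3.72 to 5.4), overlapped the macrophage background (2.25 to 4.55 CPM). The Dnmt3l ratio is thus taken against a level not clear of that background. Of 9 members, 0 were at least 2-fold higher and 1, Dnmt3l, at least 2-fold lower, where 0.578% and 1.66% of 10211 genes were. The other ratios were 0.795 for Tet2 to 1.19 for Dnmt3a.

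The expanded cells were last set against naive cells in the same medium. Dnmt3b was 2.17 times (1.97 to 2.41) and Tet1 2.07 times (1.95 to 2.21) as high in panel-positive d16+10p cells, and in panel-high cells the ratios were 2.17 and 2.14. Of the 8 members that passed the filter these 2 were at least 2-fold higher and 0 at least 2-fold lower, where 0.855% and 0.726% of 10060 genes were. Both stood close to the 2-fold boundary. Dnmt3l was 0.463 times as high (0.361 to 0.591), at under 10 CPM in both groups. In panel-high cells it passed the filter through the naive level of 10.6 CPM. It was at least 2-fold lower there, at 0.45 times (0.344 to 0.586). The panel-high d16+10p level, 4.79 CPM (3.87 to 5.87), overlapped the macrophage background (2.25 to 4.55 CPM). Uhrf1 (0.791 times), Tet3 (0.786 times), Tet2 (0.855 times), Dnmt3a (1.21 times) and Dnmt1 (1.19 times) differed by less, and the Tdg interval held a ratio of 1. Among panel-high cells below and above the median of the S-phase list, Dnmt3b had log2 ratios of 1.15 and 1.05 and Tet1 of 1.06 and 1.12.

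The median log2 ratio of the members is given beside that of all genes tested. It was -0.13 for primed against naive (0.08 over all genes), -0.60 for d8 against primed (-0.00), 0.58 for Dppa5a-high against primed (-0.04) and 1.14 for Dppa5a-high against Dppa5a-low (-0.03). For Dppa5a-high and d16+10p against naive it was 0.10 and -0.09 (0.05 and 0.00), and for d16+10p against Dppa5a-high -0.15 (-0.05).

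The d8 and Dppa5a-low cells were a mixture that may include feeder cells, so the members were also read in cells grouped by marker lists. Feeder cells and differentiated Oct4GIP cells were not told apart. Among d8 cells, 475 macrophage-marker cells had 137 CPM of Dnmt3a (130 to 145) and 8.25 CPM of Dnmt3b. In 467 smooth muscle-marker cells these were 53.1 CPM (48.8 to 57.7) and 10.2 CPM. The smooth muscle-marker cells had Acta2 at 5001 CPM, Tagln at 2294 CPM and Cnn1 at 335 CPM. Actg2 was read in 23.6% and Myh11 in 5.35% of them. The 275 d8 cells high for the pluripotency panel had the highest Dnmt3b level, 61.2 CPM (54.7 to 68.3). They had 77.5 CPM of Uhrf1 and 3.21 CPM of Dnmt3l, which overlaps the background. Their panel level was largely that of Tdgf1 at 1767 CPM, with Pou5f1 at 292, L1td1 at 114 and Utf1 at 53.7 CPM. Dppa4 (2.65 CPM) and Dppa2 (5.1 CPM) were near the 1.94 and 4.31 CPM of d8 cells high for no list. The 70 neural progenitor-marker cells had the highest Tet1 level at d8, 86.5 CPM (67.8 to 109). That list holds Sox2, which pluripotent cells also express. In these cells Fabp7 was at 771 CPM, Sox2 at 749 CPM and Nes at 644 CPM, Sox1, Pax6 and Hes5 were each read in at most 21.4% of them, and Pou5f1 was at 58.1 CPM against 56.8 CPM over all d8 cells. Most d8 cells, 7513, were high for no list, and their levels (Dnmt3a 88.5 CPM, Dnmt3b 27.6 CPM, Tet1 36.7 CPM) were close to those of the whole population.

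In the Dppa5a-low cells of d16, Dnmt3a was 116 CPM (104 to 129) in 326 fibroblast-marker cells and 149 CPM (139 to 159) in 570 neural progenitor-marker cells. In 99 neuron-marker cells it was 152 CPM (125 to 184). The neural progenitor-marker cells had Fabp7 at 1966 CPM, Sox2 at 525 CPM and Nes at 321 CPM. Sox1, Pax6 and Hes5 were each read in at most 12.5% of them. Tet3 was highest in the neuron-marker cells at 121 CPM (96.6 to 150), against 58 CPM in fibroblast-marker and 61.7 CPM in neural progenitor-marker cells. The same neuron-marker cells had 98.2 CPM of Dnmt1 (76.4 to 124). All 5 genes of the neuron list were high in them, with Dcx at 618 CPM and Elavl3 at 269 CPM against 5.82 and 2.46 CPM in Dppa5a-low cells of no marker group, although over whole groups the list sum, through Stmn2, was larger in Dppa5a-high cells (267 CPM) than in Dppa5a-low cells (168 CPM). Tet2 was 68 CPM (59 to 78) in fibroblast-marker cells and 37.6 CPM (32.8 to 42.9) in neural progenitor-marker cells. Dnmt3b was between 7.63 CPM in fibroblast-marker and 24.2 CPM in neuron-marker cells, and Dnmt3l had 1 to 9 reads in each of these 3 groups.

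**Figure D5:**
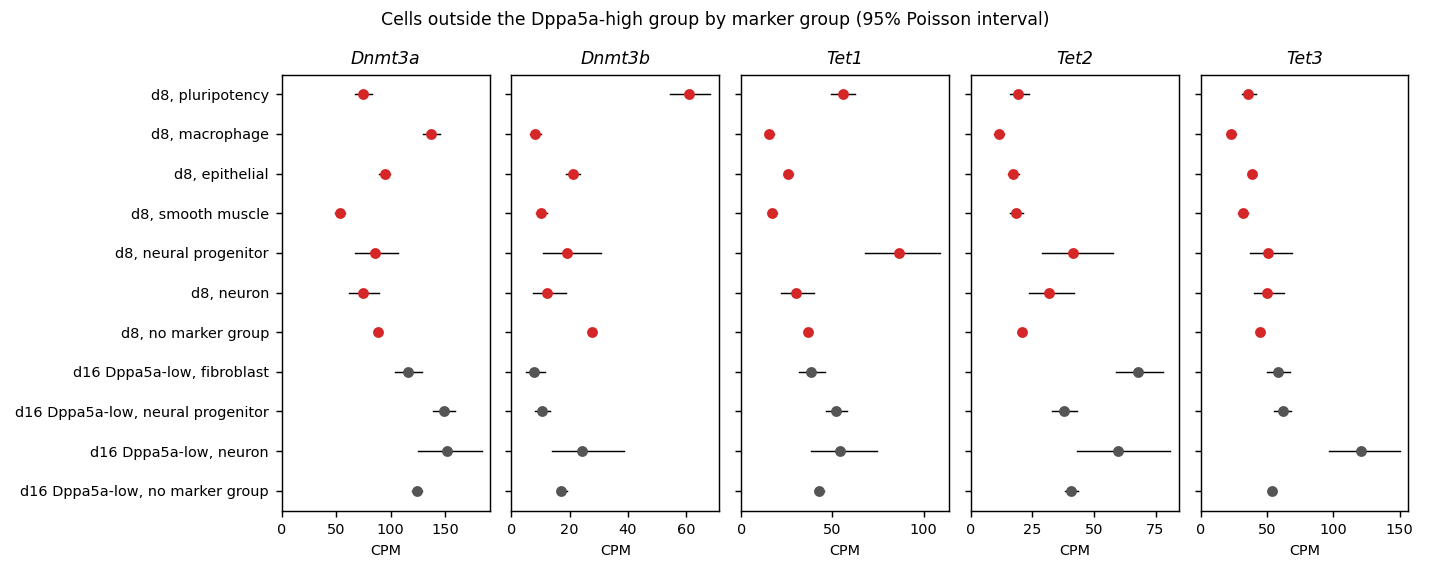
Summed level in CPM (horizontal axes, from 0) of Dnmt3a, Dnmt3b, Tet1, Tet2 and Tet3 in d8 cells (red) and d16 Dppa5a-low cells (grey) grouped by marker lists, for groups of at least 50 cells. Lines are 95% Poisson intervals. Tet3 is at 121 CPM in neuron-marker cells, and Dnmt3b at 61.2 CPM in d8 cells high for the pluripotency panel.

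A list of 36 further genes of the pathway was read in the same comparisons, 31 or 32 of which passed the filter. In primed against naive cells 0 were at least 2-fold higher and 3 at least 2-fold lower, beside 3.56% and 4.99% of all genes. These were Prdm14 (0.0987 times), a repressor of the de novo enzymes in naive cells, Zfp57 (0.251 times), which protects imprinted methylation, and Dppa3 (0.331 times), which counteracts UHRF1. In panel-high cells 1 of the list was higher, Setdb1 with 253 CPM in primed and 123 CPM in naive cells. There 3 were lower, beside 4.15% of all genes higher and 5.75% lower. In d8 against primed cells 0 were higher and 3 lower, beside 4.26% and 3.6% of all genes. The lower ones were Ahcy (0.375 times), which clears the product of methyl transfer, Cdca7 (0.376 times), the partner of the remodeller HELLS, and Apex1 (0.494 times), a repair endonuclease. Against panel-high primed cells 2 of the list were higher, Gadd45a (2.65 times) and Gadd45g (2.39 times), and 8 lower, beside 9.4% and 6.53% of all genes. In Dppa5a-high against primed cells 3 were higher and 0 lower, beside 6.53% and 3.69% of all genes, again Dppa3 (11.6 times), Prdm14 (10.5 times) and Zfp57 (2.86 times).

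Between Dppa5a-high and Dppa5a-low cells 12 of the list were at least 2-fold higher, among them Cdca7 (5.53 times) and Hells (4.37 times), and 1 was lower, Gadd45g (0.324 times), beside 11.2% and 16.6% of all genes. Against naive cells 2 were higher in Dppa5a-high cells, Dppa3 (3.86 times, 3.51 to 4.26) and Gadd45b (2.08 times), beside 2.68% of all genes. In d16+10p against naive cells 1 was higher, Dppa3 (4.72 times, 4.3 to 5.19), with 145 CPM against 30.7 CPM in naive cells, beside 0.855% of all genes. Between d16+10p and Dppa5a-high cells 0 of the list passed 2-fold in either direction, beside 0.578% of all genes higher and 1.66% lower. Of the members, Tet1 was likewise at least 2-fold above naive cells in both groups, Dnmt3b in d16+10p and Dnmt3l in Dppa5a-high cells.

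The genes whose levels ran most like each member were found by Pearson's r of log2(CPM + 1) over 9 groups of cells from 1 library, among 9973 genes. These groups share that library and the divisions by the pluripotency panel and Dppa5a, so r is a description. For Uhrf1 the closest were Asf1b, Bckdhb and Birc5 (r = 0.99 each), and for Tet3 they were Pogk, Mmp16 and Mfap4 (0.99 each). Dnmt3l was closest to Sp5 (0.96), Larp1b (0.96) and Arih2 (0.95), and Tet1 to Gm49273 (0.98), Plekhh1 (0.97) and Vmn2r79 (0.97). Dnmt1 was closest to Znrd1 (0.98), Nsmce4a and Ppie (0.97 each), and Dnmt3a to Pfdn5, Nav2 and Zbed3 (0.97 each). Dnmt3b was closest to Gm10052 (0.94), Rpl9-ps4 (0.93) and Gm7206 (0.92), Tet2 to Pfkp (0.94), Ddc (0.92) and Tbl2 (0.90), and Tdg to Enpp3 (0.93), Hnrnpll and Tdrkh (0.89 each).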

How the data were processed

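The 5 tagged populations were captured together on BD Rhapsody, and their cDNA was sequenced as 1 pooled library. Per the study's methods and the submitters' processing notes, the authors trimmed reads with cutadapt 2.10, mapped them with Bowtie2 2.3.4.1 to mouse transcripts (mm10), assigned cells by tag and removed tag doublets. No collapsing of molecular identifiers is described, so the deposited raw counts, whole numbers per gene and cell, were treated as reads. Every deposited cell was used, and no further doublet calling was run.

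Counts were summed per group and scaled to a total of 1000000. The genes and all lists were chosen with earlier results of these data known. The panel cut, found by Otsu's method, fell at 3.99 CPM and only parts cells with a panel read from those without, so a cut of 500 CPM was added after seeing the data. Within a factor of 1.5 of that added cut lay 159 naive, 218 primed and 441 d16+10p cells. Intervals are exact Poisson for counts and exact binomial (Clopper-Pearson) for shares and ratios, at 95%. Text ratios are of CPM without a pseudocount. The 2-fold rule used log2(CPM + 1). Marker groups are cells at or above 0.5 of a list's 99th percentile over all cells. Named genes are the 9 members, list genes past 2-fold and the 3 most similar genes per member. The calculations were tested on simulated data. Python 3.11.15 with numpy 2.4.6 and scipy 1.17.1 was used, and edgeR 4.0.16 gave alternative scaling factors.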

Additional observations from a re-analysis of the deposited data

How the results depend on the processing

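No paired analysis was possible because each population was 1 sample. Among 603 log2 ratios recomputed under other settings, 0 that had been past 2-fold changed direction, 510 stayed within their counting error and 93 moved beyond it. The sign turned in 10, all of them main values of at most 0.07 in size. Of 81 recomputed counts of members past 2-fold, 5 moved by over 1.5 times. With the panel at 500 CPM the count was 5 in place of 3 for primed against naive cells and 4 in place of 2 for d8 against primed cells, while the share of all genes at least 2-fold higher and lower went to 4.15% and 5.75% in the first and to 9.4% and 6.53% in the second. With a level of at least 50 CPM required, which leaves Dnmt3l out, it was 1 in place of 2 for Dppa5a-high against naive cells and 0 in place of 1 for d16+10p against Dppa5a-high cells. With a pseudocount of 10 CPM it was 0 in place of 2 for d16+10p against naive cells. The share of all genes past 2-fold was not worked out for the 50 CPM level or for this pseudocount. The counts of members under them therefore have no background beside them. The same pseudocount drew the Dnmt3l log2 ratios towards 0, from 3.41 to 1.89 for Dppa5a-high against primed, from 3.69 to 1.96 for Dppa5a-high against Dppa5a-low, from -2.77 to -1.68 for d16+10p against Dppa5a-high and from -1.61 to -0.66 for primed against naive cells. Dividing d16 at 2000 CPM gave Dnmt3l 3.05 in place of 3.69. Dnmt3l in primed cells (67 reads, 2.4 CPM) is limited by the macrophage background of 3.25 CPM.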

Other observations

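Cells with high levels of Zscan4, a gene family of the 2-cell stage, numbered 35, of which 32 were d16 cells. Their summed Tet1 level was 102 CPM and that of Uhrf1 93.6 CPM, while Dnmt3b had only 3 reads, or 6.38 CPM (1.32 to 18.7). Dnmt3l had 5 reads in them, or 10.6 CPM. These sums rest on few cells and were not compared further.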
